A study of Homo sapiens with 16 samples.

Results

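GIT2, MAPKAP1, CRADD, LARP1B, NSMCE2, PRRX1, MTFR1, TES, VTI1A and TANK-AS1 are 10 of the 38151 protein-coding and long non-coding RNA genes on chromosomes 1 to 22 and X. They are a given list, chosen from the measured peaks, and not every gene with so tall a region is on it. Each holds a tall peak of the library labelled H3K9me3 in shCtrl cells, present in the lists called against input and against IgG, that met no peak of the library labelled H3K9me3 in shARID1A cells in either list. The shCtrl peak was taken from the 10000 peaks of highest −log10 q in the input list, and in each gene it was the peak of highest fold against input. Against IgG this held in 9 of the 10, and in VTI1A a neighbouring peak was taller (13.3 beside 10.4). A region of this kind is called lost here, which says only that no peak was listed over it. Of the 9526 such shCtrl peaks that were in both control lists, 4453 were lost, or 46.7%. Only 6833 peaks of the input list had q at most 0.05, so these sets include peaks with q above 0.05. The choice therefore fixed the height of the 10 regions in shCtrl H3K9me3 and their absence in shARID1A H3K9me3, and these values are a description.

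The cells were HCT116, an established human colon cancer line, in 3 states by their titles: unmodified cells, cells with the control hairpin shCtrl (titled CTR) and cells with the hairpin shARID1A against ARID1A. Chromatin was precipitated for ARID1A and TRIM28 and for the histone mark H3K9me3 in unmodified cells, for these and SETDB1 in shCtrl cells, and for H3K9me3, TRIM28 and SETDB1 in shARID1A cells. Each of these 10 precipitated libraries has 1 list called against input and 1 called against IgG, and each combination of cell state and antibody has 1 library, so no difference below has a replicate check or a test. No label gives the hairpin sequence, the vector or whether a line is 1 clone, and the knockdown was not checked, since no ARID1A library of shARID1A cells was analysed here. The series' design text gives the question as how ARID1A relates to heterochromatin.

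H3K9me3 is trimethylation of lysine 9 on histone H3, the mark of constitutive heterochromatin and of silenced repeats and zinc finger gene clusters. SETDB1 writes it, and TRIM28 is the corepressor that zinc finger proteins use to bring SETDB1 to DNA. ARID1A is a DNA-binding subunit of the SWI/SNF remodeller, best known at open enhancers. The 10 genes share no pathway. GIT2, MAPKAP1 and CRADD encode signalling adaptors, LARP1B, NSMCE2 and PRRX1 encode proteins that act on RNA or DNA, and MTFR1, TES and VTI1A act in mitochondria, at adhesions and in vesicle fusion. TANK-AS1 is a long non-coding RNA gene next to TANK.

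The labels set a limit on all that follows. Whether each library labelled H3K9me3 holds that mark, the shCtrl library among them, was not tested. Of the 78 shCtrl H3K9me3 peaks at least as tall as the lowest member region, 78 met a shCtrl SETDB1 peak, 75 an unmodified ARID1A peak and 0 an unmodified H3K9me3 peak against input. The unmodified and shCtrl libraries labelled H3K9me3 shared none of the 10 regions, and over all 4453 lost regions 1.19% met an unmodified H3K9me3 peak. The unmodified H3K9me3 list held 11374 peaks against input, of which 15 had q at most 0.05, beside 6833 of 92063 for shCtrl H3K9me3 and 12115 of 56886 for shARID1A H3K9me3. The antibody product for H3K9me3 and TRIM28 differs between the protocol and the sample fields, so the reagent is not settled. Depth was not stated. The fragments stacked at each summit were recovered as whole numbers from the deposited fold and p, and where the precipitated library was not scaled the median background was 1.25 fragments for shCtrl H3K9me3 and 1.31 for shARID1A H3K9me3 (both against IgG). Within a cell state the antibodies were assumed to be set against the same input and the same IgG, so their overlaps share that control.

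The regions lie inside the genes, away from the transcription starts listed for these genes, and the promoters carried other peaks. A start is listed for 8 of the 10 genes, in 12 windows from 250 bases before to 50 bases after it (RefSeq, GRCh38.p14). The 8 summits lie between 4472 and 168924 bp from the nearest listed start of their own gene. Distances to starts of other genes were not measured, and NSMCE2 and MTFR1 have no distance. Peaks of shCtrl SETDB1 called against input met the windows of 4 genes (5 of 12 windows, beside 13.1% of all 35116 windows): VTI1A at a fold of 10.5, CRADD at 8.77, GIT2 at 3.56 and TANK-AS1 at 2.86, the last with q above 0.05. A shCtrl H3K9me3 peak met 1 window, that of TANK-AS1, at a fold of 2.33 (background 2.47%). No shARID1A H3K9me3 peak met a window against input (background 5.72%), while against IgG 4 genes had one: VTI1A at 5.01, GIT2 at 4.55, MAPKAP1 at 3.95 and TANK-AS1 at 3.84 (background 26.3%). Against IgG a shARID1A TRIM28 peak met 10 of 12 windows, in 7 genes (background 25.9%), and shCtrl ARID1A and shARID1A SETDB1 peaks met 6 of 12 each (background 27.6% and 30.4%). The PRRX1 window met no peak of any list. The bases before the start overlap the body of ZDHHC6 at VTI1A and the body of TANK at TANK-AS1. Window peaks there are therefore not particular to the member gene. The CRADD and MAPKAP1 promoters are shown for their SETDB1 peaks. CRADD had a shCtrl SETDB1 peak of fold 8.77 against input and 11.6 against IgG, and a shARID1A SETDB1 peak of fold 2.73, with q above 0.05, against IgG alone. MAPKAP1 had no shCtrl SETDB1 peak. Its shARID1A SETDB1 peak had a fold of 2.14, with q above 0.05, against input and 4.29, with q at most 0.05, against IgG. The 250 bases before each start are printed 5′ to 3′ on the gene's strand, chr12:93677125-93677374 (plus strand) for CRADD and chr9:125707209-125707458 (minus strand) for MAPKAP1. Capitals mark the match in CRADD to TGANTCA, a loose AP-1 pattern in which N is any base, here T. In MAPKAP1 they mark the match to the Sp motif GGGCGG, on the other strand.
CRADD: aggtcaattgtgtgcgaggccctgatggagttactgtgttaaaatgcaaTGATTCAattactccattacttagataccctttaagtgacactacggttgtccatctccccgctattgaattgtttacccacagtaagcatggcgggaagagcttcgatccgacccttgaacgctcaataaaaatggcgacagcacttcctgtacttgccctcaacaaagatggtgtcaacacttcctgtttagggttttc
MAPKAP1: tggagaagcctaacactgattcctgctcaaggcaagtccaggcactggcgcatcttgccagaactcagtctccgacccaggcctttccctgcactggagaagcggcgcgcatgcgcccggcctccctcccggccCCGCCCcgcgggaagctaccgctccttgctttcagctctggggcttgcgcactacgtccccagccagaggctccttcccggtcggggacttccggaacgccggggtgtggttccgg
Over the 250 bases before all 35116 listed starts, searched on both strands, TGANTCA was in 6.57% and GGGCGG in 42.6%. Of the 12 member windows, 2 held TGANTCA, both of CRADD, and 6 held GGGCGG. The TEAD motif GGAATG was in 2 (11.9% of all), and the TCF motif ATCAAAG and the E-box CACGTG were in none (2.26% and 6.34% of all). These matches describe letters in the windows, not bound sites.

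The 10 regions stood at the top of the shCtrl H3K9me3 list. Their folds ran from 11.1 to 13.5 with a median of 12.2, their −log10 q from 16.2 to 31.8, and their widths from 605 to 1638 bp with a median of 1054 bp, beside a median of 247 bp over the list. The lowest of them stood at the 99.9th percentile of the list by fold. Against IgG the folds ran from 6.22 at TANK-AS1 to 14.3 at MTFR1. The lowest was TANK-AS1 at 11.1, and the next lost regions in genes below it were in LOC105375081 at 11.1, TNIK at 10.7 and LRRC8D at 10.5. The list is no plain height threshold, since lost regions in LOC107986178 (12.9), MET (11.7) and TEAD1 (11.5) stood as high and these genes are not on it.

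**Figure D1:**
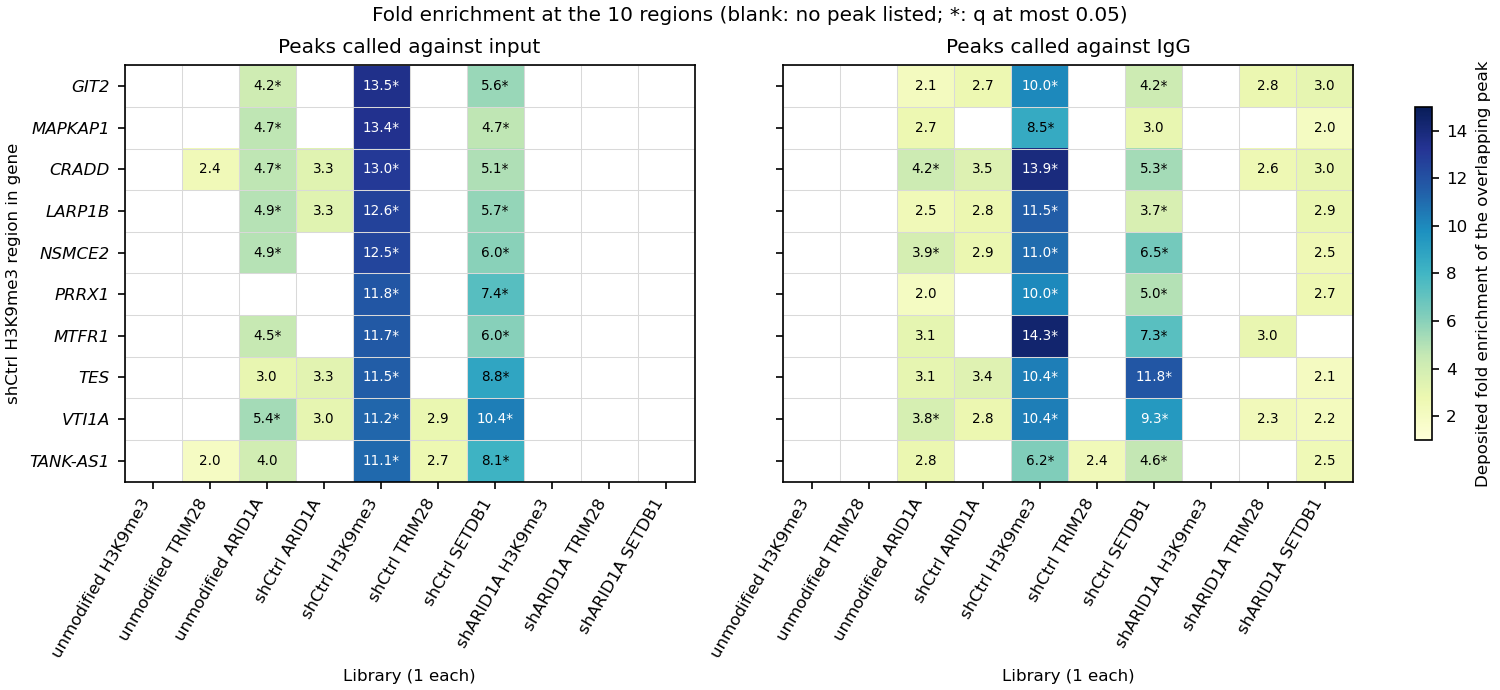
Deposited fold enrichment (colour and number) of the tallest peak that met each of the 10 regions, one row per gene and one column per library, for lists called against input (left) and IgG (right); a blank cell has no listed peak and an asterisk marks q at most 0.05. The shCtrl H3K9me3 column holds 6.22 to 14.3, shCtrl SETDB1 is filled at all 10 regions in both panels, and unmodified H3K9me3 and shARID1A H3K9me3 are blank.

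GIT2 encodes a GTPase-activating scaffold of focal adhesions. Its region, chr12:109950976-109952184, had a shCtrl H3K9me3 fold of 13.5 against input and 10.0 against IgG. An unmodified ARID1A peak (4.16) covered all of it and a shCtrl SETDB1 peak (5.64) covered 31.2% of it, with summits 32 and 3 bp from the H3K9me3 summit. The next tallest of the 2 shCtrl H3K9me3 peaks in GIT2 had a fold of 2.34, so the region stood alone in its gene. In shARID1A cells the nearest H3K9me3 peak was 36299 bp away against input and 14167 bp away against IgG.

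MAPKAP1, also called SIN1, encodes a subunit of the mTORC2 kinase complex. Its region, chr9:125537887-125538491, was the narrowest at 605 bp, had a fold of 13.4 against input and 8.53 against IgG, and also lies in the long non-coding gene LOC124902270. Unmodified ARID1A (4.71) covered 83.6% of it and shCtrl SETDB1 (4.7) covered all of it. Against IgG the shCtrl SETDB1 fold was 2.98 with q above 0.05, the one member region where this library did not reach that threshold in both lists. The nearest shARID1A H3K9me3 peak was 37998 bp away against input.

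CRADD, also called RAIDD, encodes the death-domain adaptor that joins PIDD1 to caspase-2. Its region, chr12:93784952-93786361, had a fold of 13.0 against input and 13.9 against IgG. Peaks of 4 other libraries met it against input: unmodified ARID1A at 4.71, shCtrl SETDB1 at 5.08 in 3 pieces, shCtrl ARID1A at 3.32 and unmodified TRIM28 at 2.43, of which the last pair had q above 0.05. The nearest shARID1A H3K9me3 peak was 79539 bp away against input, the longest such distance of the 10, but 369 bp away against IgG, at a fold of 1.81.

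LARP1B encodes a La-related RNA-binding protein. Its region, chr4:128162582-128164146, had a fold of 12.6 against input and 11.5 against IgG, beside 2.86 for the next tallest of 3 peaks in the gene. Unmodified ARID1A (4.93) covered 82.9% of it and shCtrl SETDB1 (5.71) covered 76.4%. A shCtrl ARID1A peak of fold 3.32, with q above 0.05, covered 13.3%.

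NSMCE2 encodes the SUMO ligase of the SMC5/6 genome maintenance complex. Its region, chr8:125219066-125219854, had the second highest −log10 q of the whole shCtrl H3K9me3 list (31.8), with a fold of 12.5 against input and 11.0 against IgG. The local background there was also the highest of the 10 regions, at 2.99 fragments against 0.929 to 1.46 at the others. The unmodified ARID1A peak over it (4.93) was 4430 bp wide and its summit lay 891 bp from the H3K9me3 summit. The shCtrl SETDB1 peak had a fold of 6.03.

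PRRX1 encodes a homeobox transcription factor of mesenchymal cells. Its region, chr1:170707812-170708638, had a fold of 11.8 against input and 10.0 against IgG. It was the one member region with no unmodified ARID1A peak against input, where the nearest lay 211 bp away at a fold of 2.73. Against IgG an unmodified ARID1A peak of fold 1.99 and q above 0.05 met it. Its shCtrl SETDB1 fold of 7.36 was the fourth highest of the 10.

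MTFR1 encodes a mitochondrial protein that promotes fission. Its region, chr8:65717255-65718111, which also lies in PDE7A, had a fold of 11.7 against input and 14.3 against IgG, the latter the highest of the 10. Unmodified ARID1A (4.49) and shCtrl SETDB1 (6.05) met it, covering 76.5% and 94.6% of it. It was the one region that no shARID1A SETDB1 peak met against IgG, the nearest being 84 bp away.

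TES encodes testin, a LIM-domain protein of focal adhesions. Its region, chr7:116217750-116218876, had a fold of 11.5 against input and 10.4 against IgG. The shCtrl SETDB1 peak had a fold of 8.77 against input and 11.8 against IgG, so here SETDB1 was the taller of the pair against IgG. Unmodified ARID1A (2.97) and shCtrl ARID1A (3.28) peaks met the region with q above 0.05.

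VTI1A encodes a SNARE protein of trans-Golgi and endosome traffic. Its region, chr10:112517435-112518416, had a fold of 11.2 against input and 10.4 against IgG. Its shCtrl SETDB1 fold of 10.4 and its unmodified ARID1A fold of 5.36 were the highest of the 10 against input. A shCtrl ARID1A peak (3.03) and a shCtrl TRIM28 peak (2.88) also met it, both with q above 0.05. A shARID1A H3K9me3 peak lay 838 bp away at a fold of 2.02 against input, and 694 bp away at a fold of 5.61 against IgG, closer than at most other members.

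TANK-AS1 lies beside TANK, which encodes an adaptor that binds TRAF proteins and the kinase TBK1. Its region, chr2:161122835-161124472, was the widest at 1638 bp, with a fold of 11.1 against input and 6.22 against IgG, the lowest of the 10 in both. The shCtrl SETDB1 peak (8.12) covered 97.2% of it. Peaks of unmodified ARID1A (4.05), unmodified TRIM28 (1.96) and shCtrl TRIM28 (2.73) met it with q above 0.05.

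Read across libraries, the regions held SETDB1 peaks in shCtrl cells and ARID1A peaks in unmodified cells, and few TRIM28 peaks. The background in each case is the share of all 4453 lost regions, and intervals are exact Clopper-Pearson intervals at 95% that cover counting only. A shCtrl SETDB1 peak met 10 of 10 regions against input and against IgG (69.2% to 100%; background 53.3% and 51.9%), at folds of 4.7 to 10.4 against input. An unmodified ARID1A peak met 9 of 10 against input (55.5% to 99.7%; background 31.8%) and 10 of 10 against IgG (background 30.3%), at folds of 2.97 to 5.36 against input. The members were picked among tall regions, and over all 9526 shCtrl regions in both lists, lost or not, the shares were 71% for shCtrl SETDB1 and 47.1% for unmodified ARID1A. Among the 78 shCtrl H3K9me3 peaks at least as tall as the lowest member, members included, the shares against input were 100% and 96.2%. So the members did not stand out among peaks of their height.

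Listed ARID1A peaks met fewer regions in shCtrl cells than in unmodified cells, but the 2 lists were unlike as a whole. Against input, 43 of 108926 shCtrl ARID1A peaks had q at most 0.05, beside 835 of 29576 for unmodified ARID1A. Whether ARID1A binding at the regions differed was not tested. A shCtrl ARID1A peak met 4 of 10 regions against input (12.2% to 73.8%; background 21.2%) and 6 of 10 against IgG (background 27.6%), each with 5 to 10 fragments and with q above 0.05. Unmodified ARID1A reached q at most 0.05 at 7 of the 10 against input and at 3 against IgG. Folds were not lower throughout in shCtrl cells: at TES they were 3.28 against input and 3.37 against IgG, beside 2.97 and 3.06 in unmodified cells. TRIM28 peaks met 2 of 10 against input in unmodified cells (background 3.55%) and 0 against IgG (background 2.4%). In shCtrl cells they met 2 of 10 against input (background 7.39%) and 1 against IgG (background 10.8%), all with q above 0.05. Unmodified H3K9me3 peaks met 0 of 10 in both lists (0% to 30.8%; background 1.19% and 0.561%).

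In shARID1A cells the regions were blank against input and thinly filled against IgG. SETDB1 met 0 of 10 against input (background 1.41%) and 9 of 10 against IgG (background 18.6%), where folds were 2.03 to 3.04, fragments 5 to 12 and q above 0.05 throughout. The SETDB1 lists of the 2 cell states were unlike as a whole. Against input, 1363 of 39245 shARID1A SETDB1 peaks had q at most 0.05, beside 37702 of 79404 for shCtrl SETDB1. Against IgG it was 6838 of 276586, beside 55343 of 114369. Whether SETDB1 binding at the regions differed was not tested. TRIM28 met 0 of 10 against input (background 4.49%) and 4 of 10 against IgG, at GIT2, CRADD, MTFR1 and VTI1A (background 15%), at folds of 2.34 to 2.95. H3K9me3 met none, by the choice of the genes. The nearest shARID1A H3K9me3 peak lay between 838 and 79539 bp away against input, with a median of 31609 bp and 7 of 10 beyond 10 kb. Against IgG it lay between 118 bp at PRRX1 and 14167 bp at GIT2, with a median of 2398 bp and 4 of 10 within 1000 bp. The 2 controls thus gave unlike pictures of the surroundings in shARID1A cells, and the IgG list held 270687 peaks where the input list held 56886.

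**Figure D2:**
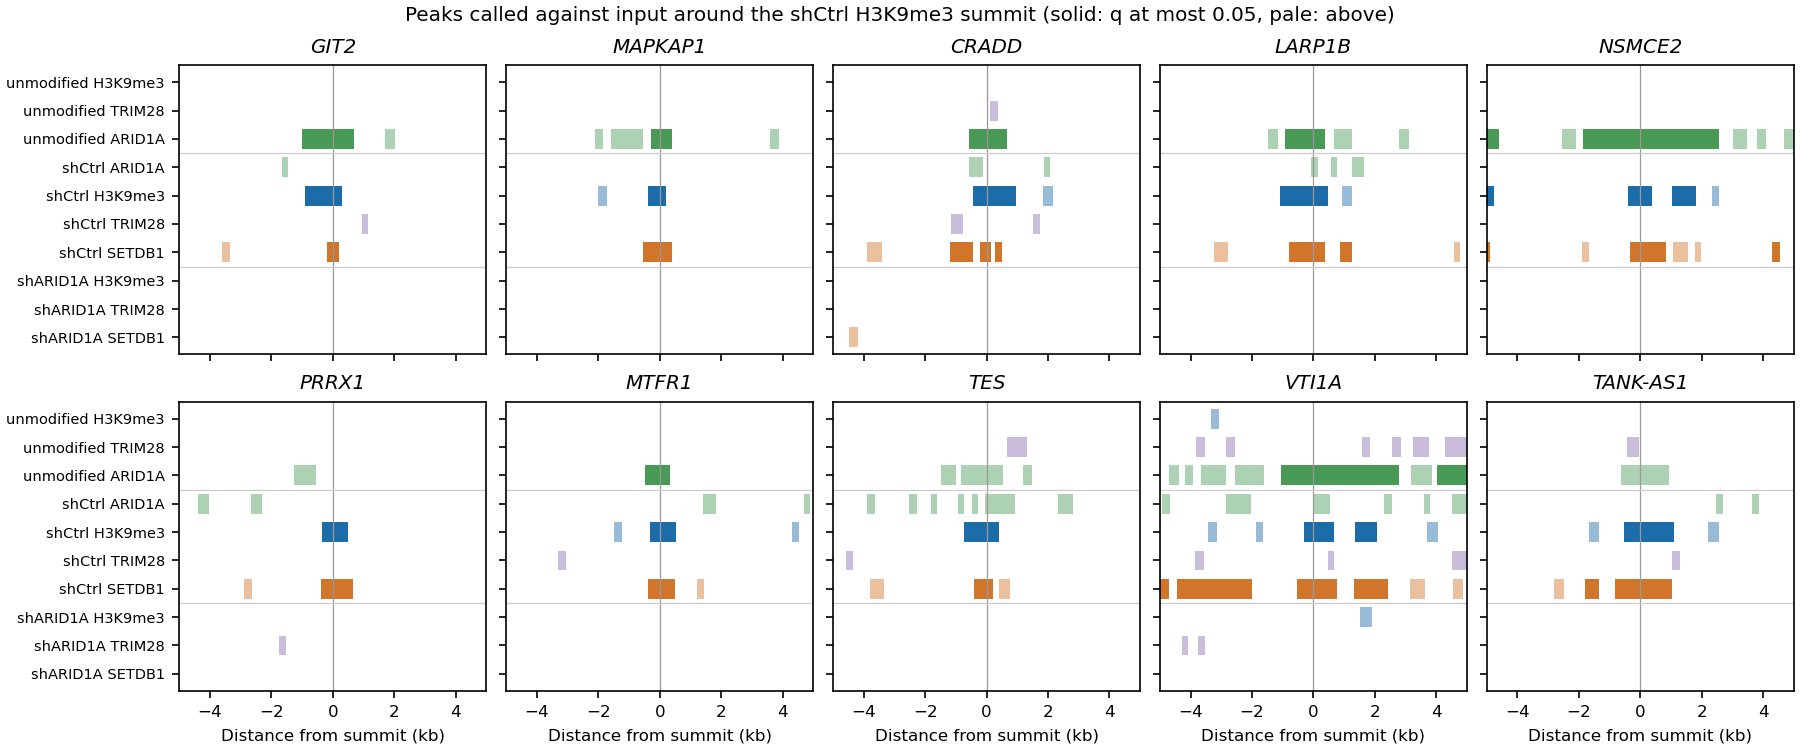
Peaks called against input within 5000 bp of the shCtrl H3K9me3 summit (x axis, distance in kb) in each of the 10 genes, one line per library; solid bars have q at most 0.05 and pale bars do not. Solid bars of unmodified ARID1A, shCtrl H3K9me3 and shCtrl SETDB1 stack at the summit in 7 panels, and the shARID1A lines hold 1 H3K9me3 peak, 3 TRIM28 peaks and 1 SETDB1 peak in all 10 panels.

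The summits rested on 29 to 65 fragments in shCtrl H3K9me3. Recovered counts for shCtrl H3K9me3 were 39 fragments at GIT2 (exact Poisson interval 27.7 to 53.3), 33 at MAPKAP1, 32 at CRADD, 32 at LARP1B, 65 at NSMCE2 (50.2 to 82.8), 29 at PRRX1 (19.4 to 41.6), 37 at MTFR1, 30 at TES, 31 at VTI1A and 30 at TANK-AS1. NSMCE2 was the highest, and its interval overlaps those of GIT2 and MTFR1 but not those of the other 7. The intervals of the other 9 overlap one another. The scaled background under them was 0.929 to 2.99 fragments against input and 1.37 to 4.98 against IgG. The counts given here are unscaled, while against input the fold was taken after the library was scaled by 0.754. The input and IgG lists gave the same count at 10 of 10 regions, which checks the recovery, since both lists read the same precipitated library. The fold does depend on the control, as at TANK-AS1 (11.1 and 6.22).

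NSMCE2 was also high in SETDB1 and ARID1A, while the order of the other regions differed. For shCtrl SETDB1 the counts were 16 at GIT2, 11 at MAPKAP1, 12 at CRADD, 14 at LARP1B, 32 at NSMCE2, 18 at PRRX1, 19 at MTFR1, 34 at TES, 29 at VTI1A and 22 at TANK-AS1, the same from both lists. TES and NSMCE2 were high (23.5 to 47.5 and 21.9 to 45.2) and MAPKAP1 and CRADD low (5.49 to 19.7 and 6.2 to 21), and these intervals of the high and the low pair do not overlap. The counts make no allowance for local background. For shCtrl SETDB1 against input it was 2 fragments at TES, 3.12 at NSMCE2 and 0.955 at both MAPKAP1 and CRADD. The folds there were 8.77, 6.03, 4.7 and 5.08 in the same order. For unmodified ARID1A the 9 regions met against input had 16 to 29 fragments, lowest at TES and highest at NSMCE2, and their intervals overlap. PRRX1, met against IgG, had 9.

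**Figure D3:**
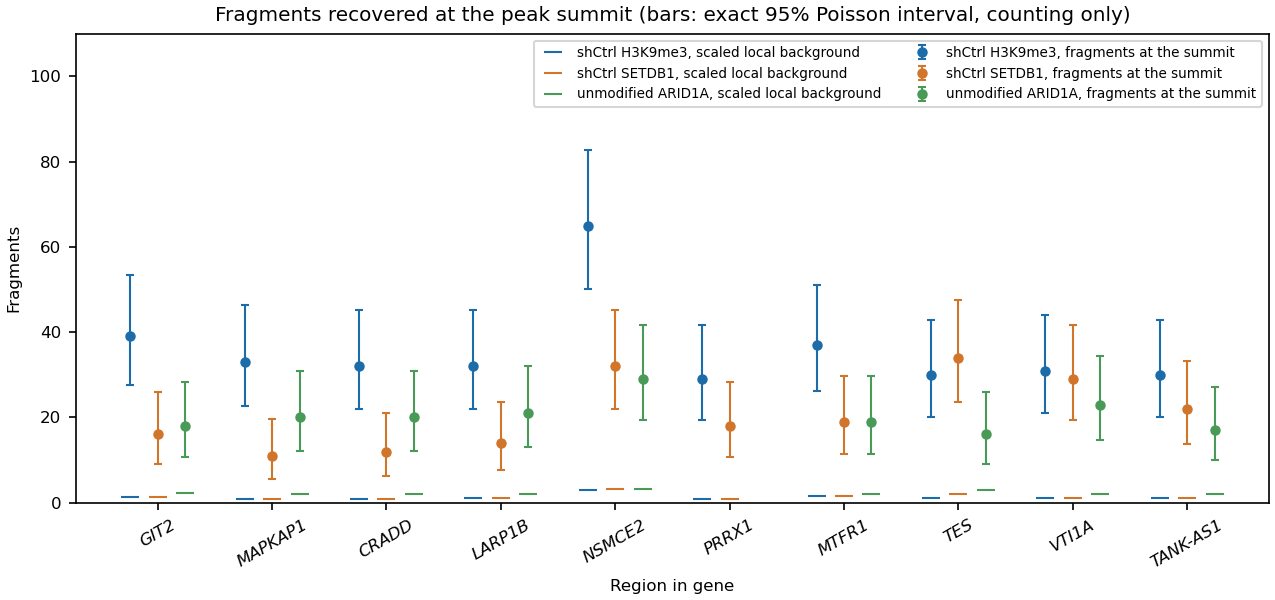
Fragments at the peak summit (y axis) for the 10 regions (x axis) in shCtrl H3K9me3, shCtrl SETDB1 and unmodified ARID1A, from lists called against input; bars are exact 95% Poisson intervals for counting only and dashes are the scaled local background. The H3K9me3 points sit at 29 to 65, the SETDB1 points at 11 to 34 and the ARID1A points at 16 to 29. The points are unscaled counts and the dashes are scaled, so the gap between them overstates the enrichment. At GIT2 the shCtrl H3K9me3 count of 39 is 29.4 after scaling, beside a background of 1.25.

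How few fragments a lost region could still hold was read from the weakest peaks. In the shARID1A H3K9me3 list against IgG the smallest listed count was 4 fragments at a background of 1.5 or 2, 6 at a background of 3 and 7 at a background of 4 (within 5% of each value). Against input it was 5, 5, 7 and 8. A member region with fewer fragments than that would have had no peak, so a remaining low signal was not detectable in these lists. The counts in shCtrl cells were 29 or more.

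Most equally tall shCtrl H3K9me3 peaks were still listed in shARID1A cells, at low folds. Of 78 shCtrl H3K9me3 peaks with at least the fold of TANK-AS1, 64 met a shARID1A H3K9me3 peak in at least 1 list (82.1%, interval 71.7% to 89.8%), 25 of them against input. At these 64 the shARID1A fold against IgG ran from 2.07 to 6.87 with a median of 3.27, on 5 to 31 fragments with a median of 12, and 36 of them had q at most 0.05. The 14 that met none (17.9%, 10.2% to 28.3%) were the 10 members, regions in MET, which encodes the receptor of hepatocyte growth factor, in TEAD1, the DNA-binding partner of YAP, and in LOC107986178, and 1 region outside genes. That the members met none is what the choice used. In the other libraries the 64 resembled the members: against input 64 of 64 met shCtrl SETDB1, 62 of 64 unmodified ARID1A, 38 of 64 shCtrl ARID1A and 0 of 64 unmodified H3K9me3. Against IgG, 41 of 64 met shARID1A SETDB1 (9 of 10 members) and 28 of 64 met shARID1A TRIM28 (4 of 10). Whether these shares differ between members and the rest was not tested.

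Lost regions in other genes were picked by the combination of libraries most common among the members, so sharing it is no result. The shARID1A H3K9me3 part of it is blank at every lost region by the rule. Over the input lists of the 9 other libraries, the most common member pattern was unmodified ARID1A with shCtrl SETDB1 and nothing else, in GIT2, MAPKAP1, NSMCE2 and MTFR1, and 657 of the 4453 lost regions (14.8%) had it. The 5 genes outside the members with this pattern in 9 of 9 libraries and the highest shCtrl H3K9me3 fold were MET at 11.7, RTTN at 10.4, METTL15 at 10.4, SLC7A11 at 9.54 and ZBTB20 at 9.15.

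Across whole gene bodies with 1000 bp on each side, peaks were uneven among the 10 genes, and in some libraries NSMCE2 and VTI1A held most. Against input, peaks of shCtrl H3K9me3 numbered 192 in the 10 genes, from 2 in GIT2 to 69 in VTI1A, and 61.5% were in NSMCE2 and VTI1A, which make up 39.4% of the length. For unmodified ARID1A it was 276 peaks, of which 115 were in NSMCE2 and 120 in VTI1A and 1 to 11 in each other gene. The share of NSMCE2 and VTI1A against input ran from 28.2% for shARID1A TRIM28 to 85.1% for unmodified ARID1A. It was 30.8% for shARID1A SETDB1, 40.3% for shCtrl TRIM28 and 47.1% for shARID1A H3K9me3, and higher in the rest. Per 100 kb, NSMCE2 held 41.5 unmodified ARID1A peaks, rank 1 of 3351 protein-coding genes at least 100 kb long, and VTI1A held 29.2, rank 5, where the median gene held 0.71. Against IgG they ranked 4 and 21. In shCtrl SETDB1 the densities were 27.1 and 19.7 per 100 kb (ranks 9 and 15).

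In shARID1A H3K9me3 these genes stood closer to the median long gene than in unmodified ARID1A: NSMCE2 held 2.52 peaks per 100 kb and VTI1A 2.19 against input, at percentiles 69.7 and 62.4 of the long genes. Against IgG they held 14.8 and 15.1, at percentiles 86.6 and 88. The local background was higher in these genes than in the other 8 in all 3 libraries compared here. Under the unmodified ARID1A peaks against input its median was 3.22 fragments in NSMCE2, 3 in VTI1A and 2.1 in the other 8 genes, and under the shCtrl H3K9me3 peaks it was 2.3, 1.99 and 1.04. Under the shARID1A H3K9me3 peaks, where the densities were low, it was 5, 5 and 2. Its part in the number of peaks was not tested.

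Most libraries had a peak somewhere in each of the 10 genes, which are long. Unmodified ARID1A, shCtrl ARID1A, shCtrl TRIM28, shCtrl SETDB1 and shARID1A TRIM28 had one in 10 of 10 (20.5%, 43.5%, 35.1%, 47.9% and 64% of all genes). So did shCtrl H3K9me3, by the choice (40.7% of all genes). Unmodified TRIM28 had one in 8 (23.6%), unmodified H3K9me3 in 7 (10.9%), shARID1A H3K9me3 in 9, with none in PRRX1 (38.1%), and shARID1A SETDB1 in 9, with none in TES (33.5%). Gene length was not adjusted for in these shares.

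**Figure D4:**
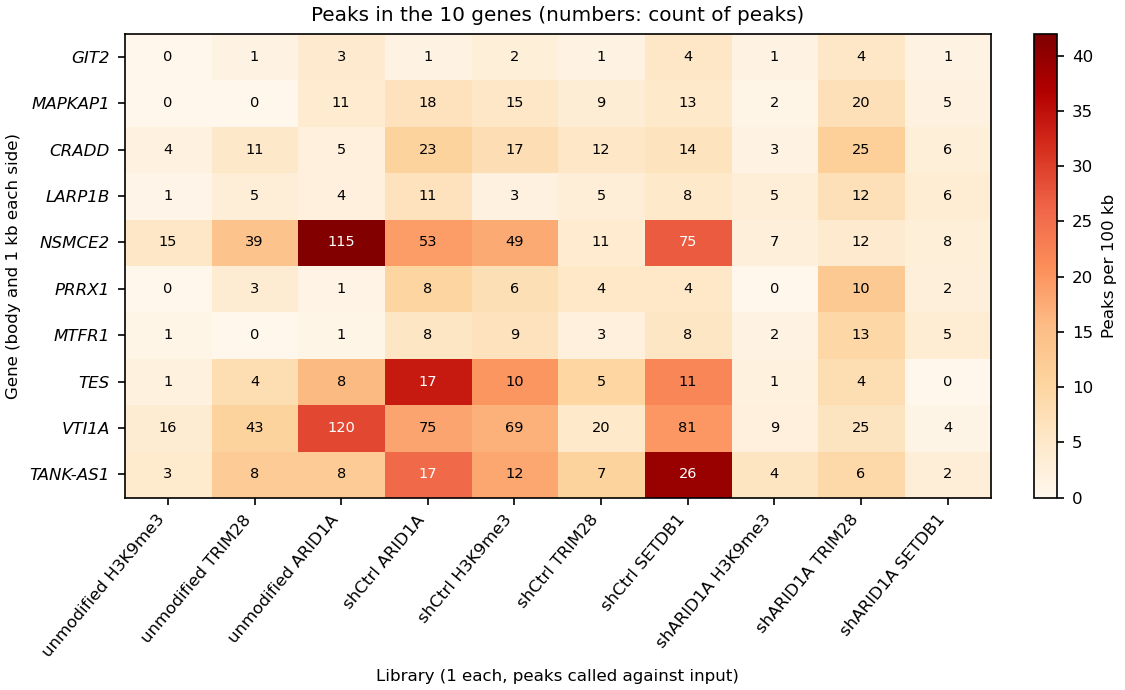
Number of peaks called against input (printed) and peaks per 100 kb (colour) in each of the 10 genes with 1000 bp on each side, for the 10 libraries. NSMCE2 and VTI1A hold 115 and 120 unmodified ARID1A peaks, and the shARID1A H3K9me3 column holds 0 to 9.

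The other shCtrl H3K9me3 peaks of these genes were seldom listed again against input, but no less often than shCtrl H3K9me3 peaks over the whole list. Of all 192, 9 met a shARID1A H3K9me3 peak against input (4.69%, 2.17% to 8.71%), beside 3.65% over all 92063 shCtrl H3K9me3 peaks. Leaving out the 10 regions, 9 of 182 did (4.95%), and 46 of 182 met a peak of the IgG list (25.3%, beside 16.1% over all). Tall peaks were among those listed again: VTI1A at chr10:112519086-112519815, with a shCtrl fold of 10.0, and NSMCE2 at chr8:125125292-125126334, with 9.72, were met in both shARID1A lists, and the NSMCE2 peak met all 9 other libraries. Others were not: NSMCE2 at chr8:125110813-125111338 (7.61) and TANK-AS1 at chr2:161134298-161135700 (6.91) met no shARID1A H3K9me3 peak in either list. So in VTI1A and NSMCE2 tall peaks that were and were not listed again lie in the same gene.

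Among these 182 peaks, those in NSMCE2 and VTI1A met unmodified ARID1A most. An unmodified ARID1A peak met 86 of 116 in these genes (74.1%) and 8 of 66 in the other 8 genes (12.1%), beside 9.24% over all shCtrl H3K9me3 peaks. For shCtrl SETDB1 it was 64 of 116 (55.2%) and 20 of 66 (30.3%), beside 19.6% over all. Against IgG the unmodified ARID1A shares were 59 of 116 (50.9%) and 11 of 66 (16.7%), beside 8.84% over all.

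H3K9me3-labelled peaks in shARID1A cells appeared elsewhere in these genes. The tallest against input were in MTFR1 at chr8:65659224-65659534 with a fold of 6.94, in CRADD at chr12:93872701-93872984 with 5.86, in MAPKAP1 at chr9:125455936-125456268 with 5.7 and in TANK-AS1 at chr2:161152305-161152636 with 5.42, each with q at most 0.05. They lay 58236, 87407, 82212 and 29073 bp from the lost summits. All 4 met a shCtrl SETDB1 peak. The one in MAPKAP1 met a shCtrl H3K9me3 peak and the other 3 did not.

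Genes that work with the members were followed from fixed lists, chosen with earlier results known. Of 73 partners, 11 held a lost region, beside 8.92% of 19974 protein-coding genes, with no allowance for gene length. Among 12 focal adhesion genes, which work with GIT2 and TES, 4 did: ENAH at a shCtrl fold of 8.68, the kinase PTK2 at 5.64, PAK1 at 3.64 and PXN at 3.57. The regions in PAK1, PXN and ZEB2 had q above 0.05. Of 6 La-related genes LARP6 (5.0) and LARP1 (4.07) did, of 7 homeobox and mesenchymal factors ZEB1 (5.6) and ZEB2 (4.03), of 11 SNARE genes STX8 (5.17), and of 7 genes around TANK the TRAF3 gene (4.12) and TANK itself (3.94). None did of 8 mTORC2 genes, 7 PIDDosome genes, 8 SMC5/6 genes and 7 mitochondrial fission genes.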

How the data were processed

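ChIP-seq peak lists of 10 precipitated HCT116 libraries, each called against input and against IgG, were used (20 lists). The submitters' processing notes name MACS2 2.2.7.1, Bowtie2 2.2.5, FastQC 0.11.9, ChIPseeker and deepTools 3.5.1, and the build GRCh38/hg38, with settings not given in the sources used here. Each library's peaks were listed separately by the authors, and each list's control comes from names inside the deposited file. The deposited fold enrichment is a ratio of summit pileup to local background, the authors' own value per peak. The deposited −log10 p and −log10 q come from the same call, and lists reach down to an unadjusted p of about 0.05.

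Peaks were joined with gene bodies (RefSeq, GRCh38.p14) extended by 1000 bp, on chromosomes 1 to 22 and X (Python 3.11.15, numpy 2.4.6, pandas 2.3.3, scipy 1.17.1). Overlap meant at least 1 bp. Whole fragments were recovered from fold and p, after a check on simulated peaks. Each list's scale made counts whole within 0.02 fragments for at least 99% of 400 sampled peaks of fold below 4. Counts at single peaks were accepted at a wider tolerance. Folds describe peaks within a list and give no measured change between lists. Members and lists were chosen with earlier results of these data known. Named beside members were the next genes below the threshold, the 5 tallest lost genes of the most common member pattern, and partners with a lost region. Region sequence, exons and introns were not analysed here.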

Additional observations from a re-analysis of the deposited data

How the results depend on the processing

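Of 93 alternatives, 68 left a count within 1.5 times, or a share within its counting interval, and 25 moved it; the causes were not tested. Regions met by unmodified TRIM28 went from 2 to 0 against IgG, at 50% coverage, at q at most 0.05 and with both controls required, and to 4 with 1000 bp added on each side. For shCtrl TRIM28 the 2 regions became 1 against IgG and with both controls, 0 at 50% coverage and at q at most 0.05, and 4 with 1000 bp added. For shCtrl ARID1A the 4 regions became 2 at 50% coverage and 0 at q at most 0.05. With 1000 bp added, shARID1A H3K9me3 met 1 region in place of 0. Against IgG, shARID1A TRIM28 met 4 and shARID1A SETDB1 met 9 in place of 0. Unmodified ARID1A met 7 to 10 regions and shCtrl SETDB1 8 to 10 over these alternatives, and unmodified H3K9me3 met 0 in each. At q at most 0.05, genes with a peak went from 7 to 0 for unmodified H3K9me3, 8 to 0 for unmodified TRIM28, 10 to 1 for shCtrl ARID1A, 10 to 0 for shCtrl TRIM28, 10 to 3 for shARID1A TRIM28 and 9 to 1 for shARID1A SETDB1. The share of shCtrl H3K9me3 peaks of the genes found again in shARID1A H3K9me3, 4.69% against input, was 18.1% against IgG, 11.3% for shCtrl peaks with q at most 0.05, 1.56% at 50% coverage and 8.85% within 1000 bp. Without NSMCE2 and VTI1A, an alternative chosen after seeing the data, it was 2.7%. No paired analysis was possible because each group has 1 library. With 1 library per group nothing is replicated, and a region with few fragments can go unlisted.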

Other observations

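Within 5000 bp of the 10 summits, the lists against IgG held many more shARID1A peaks than those against input: 15 H3K9me3 peaks near 9 regions, 24 TRIM28 peaks near 8 and 35 SETDB1 peaks near 10, beside 1, 3 and 1 against input. For the shCtrl libraries of the same antibodies the numbers were closer, at 30 and 24 for H3K9me3, 13 and 9 for TRIM28 and 32 and 33 for SETDB1 (IgG first).

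NSMCE2 also led the long genes in unmodified TRIM28 against input, with 14.1 peaks per 100 kb (rank 1 of 3351) and VTI1A 10.5 (rank 7). Against IgG the same library gave 1.44 and 2.68 per 100 kb, at percentiles 28.4 and 59.3, so this standing rested on the input list. For unmodified ARID1A the genes stayed at percentiles 99.9 and 99.4 against IgG.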
